A study of Rattus norvegicus with 192 samples.

Results

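Alas2, Ahsp, Slc4a1, Rhag and Epb42 are made in red cell precursors and were read here in blood and in 5 solid organs of rats that had breathed phosphine (PH3) or air. The probe sets were chosen by their platform annotation: each names 1 of 6 listed red cell genes and no other gene. This gave 6 probe sets of 5 genes, out of 31042 probe sets and 13438 named genes on the array. The listed beta globin gene Hbb is named in 2 probe sets, both together with other beta globin genes, so it has no probe set of its own and no value is given under its name. Slc4a1 has 2 probe sets, and the brighter one stands for the gene unless stated.

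The series holds 192 Affymetrix arrays of total RNA from adult male Sprague-Dawley rats, taken 1, 3, 6 or 24 h after a whole-body exposure. PH3 rats breathed 660 ppm phosphine, a fumigant gas, for 25 min, a product of 16500 ppm x min, and the controls are labelled Air. Lung, kidney, heart, olfactory bulb (labelled Olfac Bulb), brain stem and blood were sampled, with 48 groups of tissue, exposure and time and 3 to 5 rats in each. All rats were put down with ketamine and xylazine followed by exsanguination, blood came from a heart stick, and the protocols in the labels mention no flushing of the vessels. Rat numbers show that several tissues came from 1 animal, so arrays of different tissues are not independent of each other.

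A red cell loses its nucleus before it circulates, and the reticulocyte, the youngest form, still carries messenger RNA from its precursor. Alas2 starts haem synthesis in that lineage and Ahsp is the chaperone of free alpha globin. Slc4a1 (band 3, a chloride-bicarbonate exchanger) is a main membrane protein, which Epb42 (protein 4.2) helps to tie to the membrane skeleton, and Rhag is the glycoprotein of the Rh complex. Blood held in the vessels of an organ brings these transcripts into its RNA, while Slc4a1 is also made by acid-secreting intercalated cells of the kidney tubule.

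Genes of this lineage are commonly bound by GATA factors, and 3 of the 5 genes had an entry in the RefSeq promoter table (GRCr8). The letters AGATAA or TGATAA on either strand, the GATA core, stood in the 250 bases before the start of Alas2 and of Rhag. Neither was found for Epb42, and 16.9% of 33469 promoters of the same length hold one of them. CCACACCC and CCGCACCC, forms of the CACCC box, were found in none of the 3 on either strand and in 4.07% of all promoters. A match is a description of the letters and shows no binding. The sequences with a match are shown 5′ to 3′ on the gene's strand, with the matched letters in capitals. Alas2 lies at chrX:22895200-22895449 on the plus strand, and AGATAA starts 136 bases before its start. Rhag lies at chr9:27594391-27594640 on the minus strand, and TTATCA, the reverse complement of TGATAA, starts 31 bases before its start.
Alas2: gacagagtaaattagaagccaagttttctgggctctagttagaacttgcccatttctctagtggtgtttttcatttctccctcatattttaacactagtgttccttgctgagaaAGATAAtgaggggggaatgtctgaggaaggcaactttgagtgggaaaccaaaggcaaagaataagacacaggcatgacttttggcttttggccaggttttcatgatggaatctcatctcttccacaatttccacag
Rhag: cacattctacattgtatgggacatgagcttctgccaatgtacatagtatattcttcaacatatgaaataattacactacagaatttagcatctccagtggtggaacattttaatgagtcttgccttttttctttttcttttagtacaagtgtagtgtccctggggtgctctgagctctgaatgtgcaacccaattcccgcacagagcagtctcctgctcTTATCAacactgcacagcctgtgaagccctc

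In Air rats the blood arrays held the highest log2 level of all 5 genes, and in each gene no array of another tissue reached the lowest blood array. Levels are RMA log2 values, so 1 unit is a doubling of signal, and they are compared only within a probe set. Alas2 averaged 13.3 ± 0.06 (SD, n = 15) in blood, 8.93 ± 0.38 (n = 16) in lung and 8.85 ± 0.36 (n = 16) in heart. Its level was 6.71 ± 0.82 (n = 16) in brain stem, 5.78 ± 0.56 (n = 16) in kidney and 5.70 ± 0.58 (n = 17) in olfactory bulb. Lung and heart were thus neighbours whose ranges overlapped (8.32 to 9.76 and 8.14 to 9.57), as were kidney and olfactory bulb (4.84 to 6.57 and 5.08 to 6.89). The spread of Alas2 in brain stem, from 5.30 to 8.12, reached from kidney values almost to the lowest heart array.

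Ahsp followed the same outline, with 11.9 ± 0.20 (SD, n = 15) in blood, 6.32 ± 0.38 (n = 16) in lung and 6.19 ± 0.59 (n = 16) in heart. Brain stem had 4.71 ± 0.53 (n = 16), olfactory bulb 4.29 ± 0.28 (n = 17) and kidney 4.17 ± 0.28 (n = 16). Lung and heart changed places under quantile normalization of all tissues together (6.14 and 6.25), and their ranges overlapped in either scale. These were orders of single probe sets with no test.

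The membrane genes departed from that order. Slc4a1 had its second highest level in kidney, at 8.25 ± 0.31 (SD, n = 16), against 12.0 ± 0.17 (n = 15) in blood, 6.41 ± 0.72 (n = 16) in heart and 5.96 ± 0.58 (n = 16) in lung. The lowest kidney array (7.68) lay above the highest heart array (7.45) and the highest lung array (6.80). Brain stem averaged 4.22 ± 0.58 (n = 16) and olfactory bulb 3.57 ± 0.31 (n = 17). The second Slc4a1 probe set placed kidney second as well, at 6.56 ± 0.30 (n = 16) against 10.6 ± 0.29 (n = 15) in blood and 4.91 ± 0.59 (n = 16) in heart. Rhag averaged 7.54 ± 0.94 (SD, n = 15) in blood and between 3.34 and 3.72 in the 5 solid tissues. Epb42 averaged 10.7 ± 0.24 (SD, n = 15) in blood and between 2.97 and 3.79 elsewhere, with heart and lung the highest of these. The solid-tissue values of Rhag and Epb42 sat near the low end of the array scale, where a probe set has little room to show a lower level.

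**Figure D1:**
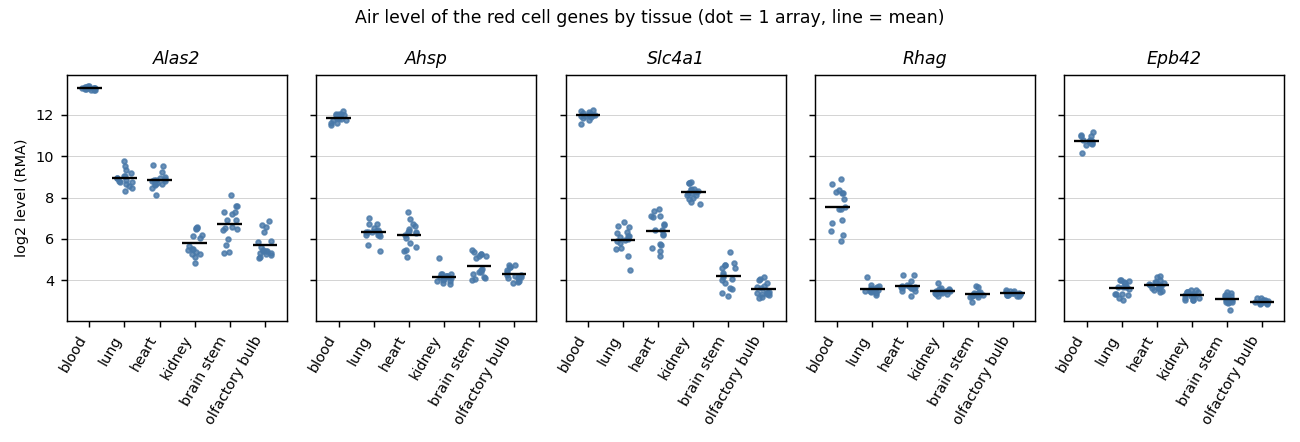
Log2 RMA level of 5 red cell genes (panels) in Air rats by tissue, 1 dot per array and a line at the mean of 15 to 17 arrays. Every gene is highest in blood, and kidney is second for Slc4a1 only, at 8.25.

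Array-to-array spread within a group differed by gene and tissue. The median SD over all probe sets was 0.5 in blood and from 0.154 (brain stem) to 0.253 (heart) in solid tissues. A percentile in blood is therefore not comparable with one in a solid tissue. Alas2 in blood also lay near the top of the scale, where spread may not show. In blood the pooled SD of Alas2 within groups was 0.0486, at percentile 0.0226 of the SDs of all probe sets, while Rhag had 0.992, at percentile 98.8. In the solid tissues the order turned. Alas2 had an SD of 0.697 in brain stem (percentile 99.3), 0.53 in kidney (98.2) and 0.557 in olfactory bulb (97.5). Ahsp had 0.744 in olfactory bulb (98.6) and 0.64 in heart (96.7). The bulb values include Rat512 (PH3, 3 h), which stood apart from its group, with Alas2 at 7.68 against 5.19 to 5.56. Over the 17 Air bulbs of all times the SD was 0.58 for Alas2 and 0.28 for Ahsp. Rhag in kidney (0.124, percentile 19.9) and Epb42 in olfactory bulb (0.113, percentile 19.1) were among the steadier probe sets.

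Between control rats of different times none of the 5 genes was called in any tissue (limma F test over the 4 Air groups, lowest adjusted p = 0.106, for Rhag in lung, the only 1 of 30 with an unadjusted p under 0.05). The same test called 12.2% of all probe sets in lung, 7.8% in brain stem, 1.39% in olfactory bulb, 0.548% in heart, 0.00322% in kidney and 0% in blood.

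Exposure to PH3 moved few of the 5 genes past the spread between rats. Over 6 tissues and 4 times there were 120 differences, PH3 minus Air, 1 for each gene, tissue and time. limma with Benjamini-Hochberg adjustment over all probe sets of a contrast called 2 of 120 at an adjusted p under 0.05, against 0.752% of all probe sets over the same 24 contrasts. Both calls were in kidney at 1 h and both were higher after PH3. At an unadjusted p under 0.05 there were 7 of 120, against 7.7% of all probe sets. Of the 120 differences 74 were positive, against 50.1% of all. Groups did not overlap in 8 of 120, PH3 above Air each time, against 2.35% of all probe sets in that direction and 2.09% in the other.

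Limma called none of the 5 genes in the other 23 contrasts, and 5 of their 115 differences had an unadjusted p under 0.05: Ahsp in heart and lung at 1 h, Rhag in lung at 3 h, and Slc4a1 and Epb42 in olfactory bulb at 3 h. The share of all probe sets called there was 0% in blood at each time, 0.306%, 0.0161%, 0% and 0.00322% in brain stem at 1, 3, 6 and 24 h, and 0.915%, 0.00644%, 0% and 0.00644% in heart. In kidney it was 0.303%, 0.0161% and 0% at 3, 6 and 24 h. In lung it was 4.24%, 9.89%, 0% and 0%, and in olfactory bulb 0.00322% at 1 h and 0% later. The standard error of a difference ran from 0.08 for Epb42 in olfactory bulb to 0.69 for Rhag in blood at 24 h, so smaller differences were not detectable for the noisier genes.

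**Figure D2:**
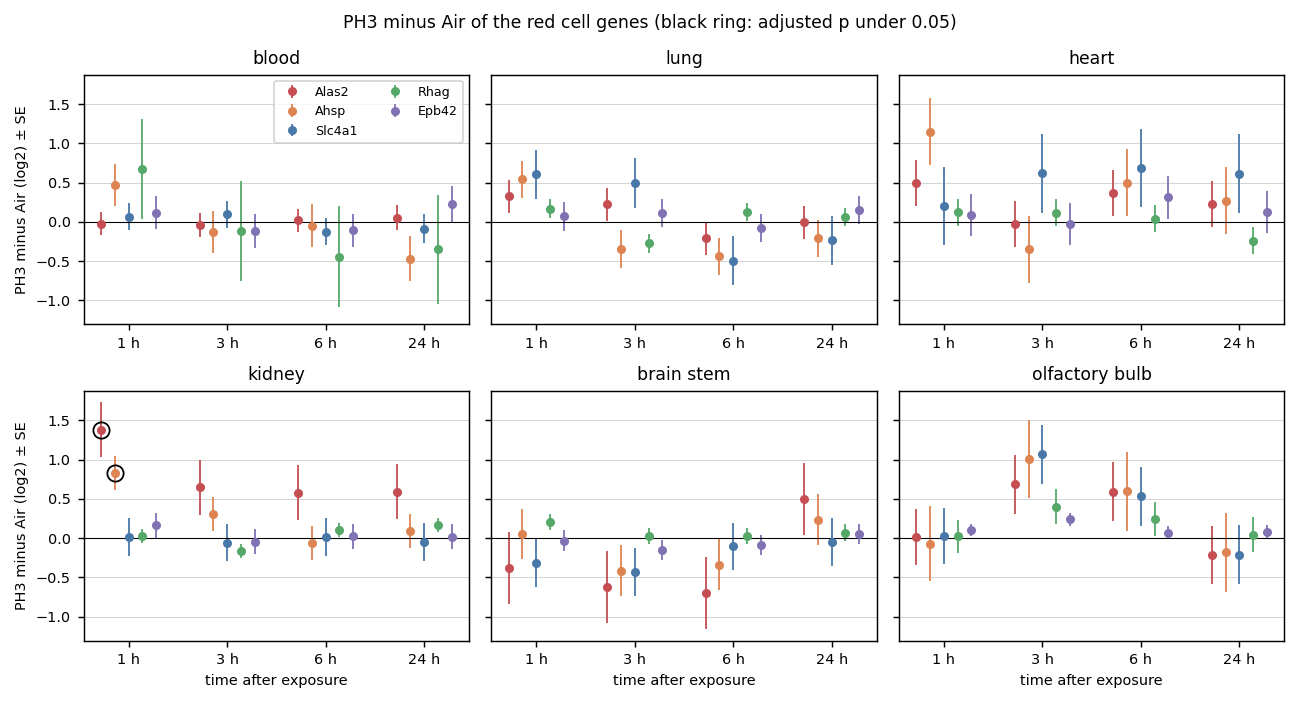
Difference PH3 minus Air in log2 units with its standard error from limma (bars) for 5 red cell genes, by tissue (panels) and time after exposure, 3 to 5 rats per group. The only 2 ringed points, past an adjusted p of 0.05, are Alas2 (1.38) and Ahsp (0.82) in kidney at 1 h.

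In kidney at 1 h 2 of the 5 genes rose, Alas2 and Ahsp. Alas2 read 6.53, 5.14, 5.44 and 5.29 in the 4 Air kidneys and 6.53, 7.41, 6.57 and 7.42 in the 4 PH3 kidneys. The highest Air kidney (Rat345) and the lowest PH3 kidney (Rat343) were equal to 2 decimals, and the other 3 Air kidneys were all below 5.5. Alas2 was higher by 1.38 ± 0.35 log2 units (SE), a 2.61-fold signal (limma, adjusted p = 0.0295). Ahsp read 4.20, 4.0, 4.32 and 4.06 in Air and 4.53, 4.97, 4.77 and 5.61 in PH3 kidneys. All 4 PH3 kidneys were above all 4 Air kidneys, and Rat357 was the highest. Ahsp was higher by 0.82 ± 0.22 log2 units (SE), or 1.77-fold (limma, adjusted p = 0.0374). These were 2 of 5 genes called higher, against 1.51% of all probe sets called higher and 2.35% called in either direction. PH3 lay wholly above Air in the same 2 of 5, for Alas2 by a gap not seen at 2 decimals, against 3.27% of all. In a bulk sample a change in the number of cells of a type and a change in RNA per cell cannot be told apart.

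The 3 membrane genes did not pass the test in these kidneys. Slc4a1 read 8.72, 7.93, 8.43 and 8.68 in Air and 8.40, 8.13, 9.04 and 8.26 in PH3 kidneys at 1 h, a difference of 0.02 ± 0.24 (SE). Its groups overlapped, and the second probe set gave 0.03 ± 0.20. Rhag differed by 0.03 ± 0.09 and Epb42 by 0.16 ± 0.16, both with overlapping groups. Rhag and Epb42 lay near the low end of the scale, and Slc4a1 had a high level in Air kidneys. The bearing of these levels on the 3 differences was not tested. The median over the 5 genes was 0.16, and over all probe sets it was -0.00239.

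Either kidney call rested on most of the 8 rats. Alas2 lost its call without Air Rat352 (1.23, adjusted p = 0.104), Rat353 (1.33, adjusted p = 0.0838) or Rat354 (1.28, adjusted p = 0.0923), and without PH3 Rat350 (1.24, adjusted p = 0.109) or Rat357 (1.24, adjusted p = 0.116). Ahsp lost its call without Air Rat345 (0.844, adjusted p = 0.0646), Rat352 (0.775, adjusted p = 0.101), Rat353 (0.883, adjusted p = 0.0544) or Rat354 (0.796, adjusted p = 0.092), and without PH3 Rat350 (0.826, adjusted p = 0.0811) or Rat357 (0.612, adjusted p = 0.194). With the kidney rats of 1 h fitted alone neither was called (adjusted p = 0.137 for Alas2 and 0.153 for Ahsp). With each array's median subtracted Alas2 stayed past the threshold (adjusted p = 0.0349) and Ahsp did not (adjusted p = 0.0562). In a replicate block fit of all tissues, with the rat as a random block, Alas2 had an adjusted p of 0.0128 and Ahsp of 0.763. That fit also shares the estimate of the spread over all tissues. The standard error was 0.334 for Alas2 and 0.356 for Ahsp there, against 0.352 and 0.217 in the kidney fit. Its consensus correlation within a rat was 0.0168. These adjusted p-values therefore do not isolate the part of the block.

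Globin transcripts, which fill the same cells, were also higher in these kidneys. Hba-a3, an alpha globin gene with a probe set of its own, read 8.05, 7.61, 7.84 and 7.34 in Air and 8.84, 9.22, 8.99 and 9.60 in PH3 kidneys at 1 h. The groups did not overlap, and the difference was 1.45 ± 0.30 (SE; limma, adjusted p = 0.00566). It passed the threshold in all 8 fits that left out 1 rat, with an adjusted p from 0.00708 to 0.0321. The theta globin gene Hbq1b differed by 0.69 ± 0.21 (SE; adjusted p = 0.0846). Of 6 globin genes measured, 1 was called higher and 4 were positive. Probe sets shared by several beta globin genes were higher by 1.24, 1.38 and 1.43 (adjusted p = 0.017, 0.0246 and 0.00834), and those shared by the alpha globin genes by 0.85 to 1.12, of which 1 of 3 was called (1.12, adjusted p = 0.0134).

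Wider red cell lists stayed near the median of the array in kidney at 1 h. None of 15 measured haem genes, 19 membrane and skeleton genes or 15 erythroid transcription and signalling genes was called, and their median differences were 0.01, 0.04 and 0.02. Among 28 reticulocyte and cytosol genes Pim1, a kinase of many cell types, was called higher (0.82 ± 0.14, SE, adjusted p = 0.000806), and the median was -0.01. Many genes of these lists have a high level in kidney itself. Median Air levels of haem, membrane, transcription and cytosol genes were 8.24, 7.34, 4.34 and 8.35 in kidney, against 8.96, 9.73, 9.52 and 11.5 in blood. The bearing of these levels on the list medians was not tested.

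Markers of other blood cells in the same kidneys were read beside these values. The mean level of 10 platelet genes ran from 4.24 to 4.50 in Air and from 4.50 to 4.74 in PH3 kidneys, 9 of 10 genes were positive, and Itgb3 (integrin beta 3) was called higher (1.05 ± 0.21, SE, adjusted p = 0.00482). Pf4 (platelet factor 4) read 5.63, 6.02, 6.15 and 5.47 in Air and 6.15, 6.66, 6.33 and 6.51 in PH3 kidneys. The mean of 11 neutrophil genes ran from 4.03 to 4.11 in Air and from 3.92 to 4.22 in PH3 kidneys, with Il1r2 alone called (0.61 ± 0.17, SE, adjusted p = 0.0426). Monocyte, B cell and T cell lists had medians of -0.04, -0.01 and 0.03 and no call, and 8 kidney tubule genes had a median of -0.05 with no call. RNA integrity was read from control probe sets for beta-actin and Gapdh as the mean log2 signal of the 3′ end minus the 5′ end, which was 0.309 ± 0.0773 (SD, n = 4) in Air and 0.295 ± 0.055 (n = 4) in PH3 kidneys (exact permutation test, two-sided, p = 0.743, adjusted p = 0.99 over 24 contrasts). The kidney fit with this value of each array as a covariate gave 1.4 for Alas2 at 1 h (limma, adjusted p = 0.0293) and 0.812 for Ahsp (adjusted p = 0.0434). The part of platelets or of vessel content in the kidney result was not tested.

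At the later times Alas2 in kidney kept positive differences that were not called. At 3 h it read 5.29, 5.50, 6.15 and 6.20 in Air and 6.27, 6.48, 6.70 and 6.29 in PH3 kidneys. Those groups did not overlap, for 1 of 5 genes against 2.87% of all probe sets, and the difference was 0.65 ± 0.35 (SE, adjusted p = 0.562). The differences at 6 and 24 h were 0.58 ± 0.35 and 0.59 ± 0.35 with overlapping groups. Ahsp was at 0.31 ± 0.22, -0.06 ± 0.22 and 0.09 ± 0.22 at 3, 6 and 24 h. Rhag at 24 h differed by 0.16 ± 0.09 (SE, adjusted p = 0.814), with every PH3 kidney (3.52 to 3.61) above every Air kidney (3.23 to 3.51), as in 2.47% of all probe sets. The test of a difference between the 4 times was not passed by Alas2 (limma F test, adjusted p = 0.799) or Ahsp (adjusted p = 0.501) in kidney.

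**Figure D3:**
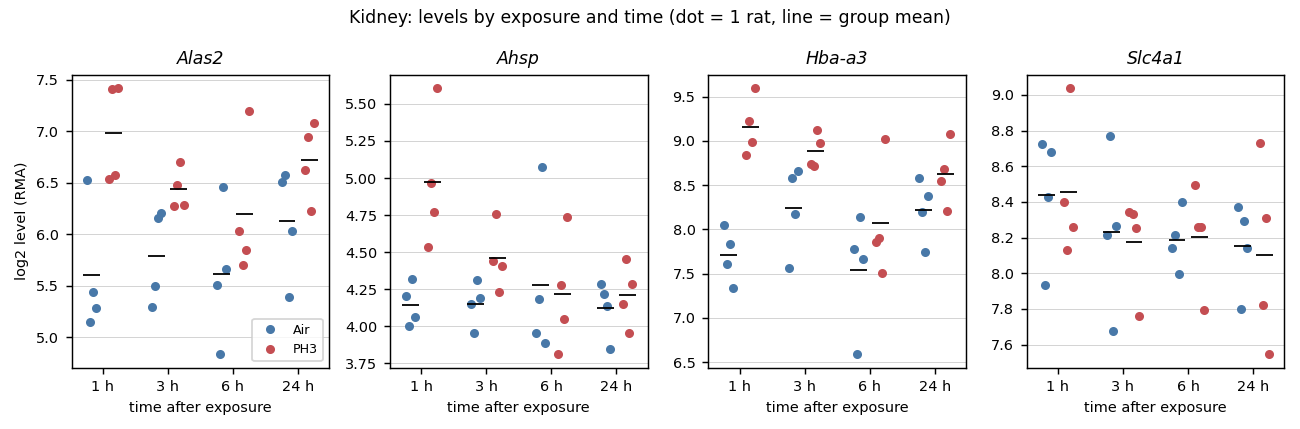
Log2 RMA level of Alas2, Ahsp, Hba-a3 and Slc4a1 in kidney by time after exposure, 1 dot per rat (4 per group) with Air in blue and PH3 in red, and a line at each group mean. At 1 h the PH3 kidneys lie above the Air kidneys for the first 3 genes, while Slc4a1 overlaps.

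Alas2 in blood lay at percentile 99.97 of its arrays on average, near the top of the scale, where a change may not show. At 1 h it read 13.40, 13.33, 13.31 and 13.28 in Air and 13.33, 13.22, 13.32 and 13.35 in PH3 blood of the same rats, a difference of -0.02 ± 0.15 (SE, which limma draws toward the spread of other probe sets). Ahsp read 11.62, 11.80, 11.51 and 12.01 in Air and 12.17, 12.30, 12.12 and 12.24 in PH3 blood. The groups did not overlap, for 1 of 5 genes against 1.52% of all probe sets, and the difference of 0.47 ± 0.27 (SE) was not called (adjusted p = 0.668). Rhag differed by 0.68 ± 0.64 and Slc4a1 by 0.06 ± 0.17, neither called. From 3 to 24 h the blood differences of the 5 genes ran from -0.47, for Ahsp at 24 h, to 0.23, for Epb42 at 24 h, with overlapping groups throughout.

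Taking kidney minus blood within each rat left a 1 h difference of 1.41 ± 0.38 (SE) for Alas2, with an unadjusted p of 8.9e-04 and an adjusted p of 0.223 in limma, and of 0.35 ± 0.34 for Ahsp. The Alas2 value rests on blood levels near the top of the scale. None of the 5 genes was called by limma in any of the 16 such contrasts of kidney, heart, lung or brain stem, and 2 of 80 differences had an unadjusted p under 0.05. They called 0.0548% of all probe sets in kidney, 0.058% in heart and 0.0322% in lung at 1 h and 0% in the other 13. Across the 6 tissues at 1 h the Alas2 effect had an F of 3.25 (unadjusted p = 0.0103, adjusted p = 0.156), and the test with the rat as a block gave an adjusted p of 0.0758. None of the 5 genes was called in this test at any time (2 of 20 had an unadjusted p under 0.05), against 3.09% of all probe sets at 1 h, 0.303% at 3 h, 0.00644% at 6 h and 0% at 24 h. The kidney rise of Alas2 is therefore not shown to differ from its change in the other tissues.

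Heart at 1 h gave the second largest of the 120 differences, and it was not called. Ahsp read 6.40, 6.19, 5.11 and 7.28 in Air and 7.69, 7.20, 6.82 and 7.87 in PH3 hearts. Air Rat354 fell among the PH3 values and Air Rat353 was the lowest by over 1 unit. The difference was 1.15 ± 0.43 (SE, adjusted p = 0.244), and it was 0.771 without Rat353. Against the Air hearts of all 4 times it was 1.2 ± 0.35 (adjusted p = 0.0442). The heart of Rat357, the highest PH3 value, had a 3′ minus 5′ log2 value of 0.868. With that value of each array as a covariate in limma the Ahsp difference was 1.12 (adjusted p = 0.272). Alas2 differed by 0.49 ± 0.29 and Slc4a1 by 0.20 ± 0.50 at 1 h. Over all times 16 of 20 heart differences were positive, with a median of 0.215 and with overlapping groups in each. Of all probe sets in heart 49.3%, 53.1%, 51% and 53.9% were positive at 1, 3, 6 and 24 h. The genes of a time were read on the same arrays, so their signs are not independent.

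All 5 genes were positive in lung at 1 h, and none was called. Ahsp read 6.16, 6.18, 5.41 and 6.23 in Air and 6.45, 6.34, 6.40 and 6.97 in PH3 lungs. The groups did not overlap, for 1 of 5 genes against 4.33% of all probe sets, although Rat353 again held the lowest Air value and Rat357 the highest PH3 value. Ahsp differed by 0.54 ± 0.24 (SE, adjusted p = 0.26), Slc4a1 by 0.61 ± 0.31 (adjusted p = 0.367) and Alas2 by 0.33 ± 0.21 (adjusted p = 0.515). At 6 h the same 3 genes were at -0.44 ± 0.24, -0.49 ± 0.31 and -0.21 ± 0.21. In the limma F test of a difference between times, the adjusted p in lung was 0.183 for Ahsp and 0.235 for Slc4a1. That test called 4.82% of all probe sets in lung, 0.49% in kidney, 0.116% in heart, 0.0709% in brain stem and 0% in blood and olfactory bulb, and none of the 5 genes in any tissue (3 of 30 had an unadjusted p under 0.05).

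Other red cell genes did pass the test in lung, where many genes changed. The lung calls at 1 and 3 h are given without their alternatives, and several lay near the threshold. At 1 h 4.24% of all probe sets were called in lung, 2.35% higher and 1.89% lower. Of 19 measured membrane and skeleton genes 3 were higher and none was lower. Rhd, the Rh protein that pairs with Rhag in the membrane, rose by 0.70 ± 0.18 (SE, adjusted p = 0.0177), while Rhag itself differed by 0.17 ± 0.12 (adjusted p = 0.569). Aqp1, the water channel of red cells and of endothelium, rose by 0.49 ± 0.10 (adjusted p = 0.00207), and Stom (stomatin) by 0.45 ± 0.08 (adjusted p = 0.000956). The transferrin receptor Tfrc rose by 0.57 ± 0.13 (adjusted p = 0.00845), and the transcription cofactor Lmo2 fell by 0.72 ± 0.11 (SE, adjusted p = 9.97e-05), the 2 called among 15 measured erythroid transcription and signalling genes. Alad, the enzyme after the Alas step of haem synthesis, fell by 0.30 ± 0.09 (SE, adjusted p = 0.0432), the only 1 of 15 haem genes. Bnip3l, which clears mitochondria from reticulocytes, and Fam210b fell by 0.22 ± 0.06 and 0.37 ± 0.08 (SE, adjusted p = 0.0298 and 0.00369), among 28 cytosol genes. List medians were 0.07, 0.07, -0.03 and 0.02 for membrane, transcription, haem and cytosol genes, against -0.00941 over all probe sets.

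At 3 h 9.89% of all probe sets were called in lung, 5.86% higher and 4.03% lower. Calls were made for 2 of 19 membrane, 3 of 15 haem, 1 of 15 transcription and 2 of 28 cytosol genes, which were other genes than at 1 h except Aqp1 and Fam210b. Aqp1 (0.41 ± 0.10, SE, adjusted p = 0.00799) was higher again, and Cd47, a surface protein of most cells, was higher by 0.38 ± 0.10 (adjusted p = 0.0172). Fam210b was higher by 0.29 ± 0.08 (adjusted p = 0.0195), the reverse of its 1 h call. Cpox and Blvra, enzymes of haem synthesis and breakdown, were higher by 0.34 ± 0.11 and 0.37 ± 0.12 (adjusted p = 0.0469 and 0.0449). The mitochondrial iron carrier Slc25a37 fell by 0.35 ± 0.10 (SE, adjusted p = 0.0214). Zfpm1, the GATA cofactor, and Ucp2 were higher by 0.45 ± 0.14 and 0.39 ± 0.11 (adjusted p = 0.038 and 0.0219). Alas2, Ahsp, Slc4a1, Rhag and Epb42 were at 0.22 ± 0.21, -0.34 ± 0.24, 0.50 ± 0.31, -0.27 ± 0.12 and 0.11 ± 0.18 in the same lungs. All 11 neutrophil genes were positive there, 4 of them called, with a list mean of 5.08 to 5.91 in Air and 5.91 to 6.74 in PH3. The 3′ minus 5′ log2 value was 0.445 ± 0.0776 (SD, n = 4) in Air and 0.178 ± 0.065 (n = 4) in PH3 lungs at 3 h (exact permutation test, two-sided, p = 0.0286, the smallest it can give, adjusted p = 0.686 over 24 contrasts). Air lungs averaged 0.217, 0.191 and 0.139 at 1, 6 and 24 h, so the Air group of 3 h was the one that stood apart. The part of this value in the 3 h lung calls is not given here. Among globins in these lungs, 1 of 3 probe sets shared by beta globin genes was called higher (0.38 ± 0.12, SE, adjusted p = 0.0418) and the other two differed by 0.21 ± 0.08 and -0.12 ± 0.10 (adjusted p = 0.0848 and 0.538). Hba-a3 differed by 0.64 ± 0.24 (adjusted p = 0.0888), and none of the 6 globin genes with a probe set of their own was called.

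In brain stem the 3 genes with a level above the floor were negative at 3 and 6 h, with overlapping groups. Alas2 differed by -0.62 ± 0.46 and -0.70 ± 0.46, Ahsp by -0.42 ± 0.32 and -0.34 ± 0.32, and Slc4a1 by -0.44 ± 0.30 and -0.11 ± 0.30. At 24 h 4 of the 5 genes were positive, with Alas2 at 0.50 ± 0.46 and Ahsp at 0.23 ± 0.32. None of the 20 brain stem differences had an unadjusted p under 0.05, and all 20 had overlapping groups.

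In the olfactory bulb 1 array carried much of the pattern at 3 h. Ahsp read 4.21, 4.63, 4.24 and 4.11 in Air and 4.58, 8.31, 3.74 and 4.61 in PH3 bulbs, with the value of 8.31 in Rat512. The same array read 7.68 for Alas2 against 5.19 to 5.56 in the other 3, 6.70 for Slc4a1 against 3.50 to 3.76, and 4.83 for Rhag against 3.26 to 3.49. It was the highest of its group for all 5 genes, Epb42 (3.54) included. Differences at 3 h were 0.69 ± 0.37 for Alas2, 1.01 ± 0.50 for Ahsp, 1.07 ± 0.38 for Slc4a1, 0.40 ± 0.22 for Rhag and 0.24 ± 0.08 for Epb42 (limma, adjusted p = 0.532 at the lowest). Without Rat512 they were 0.126, 0.0129, 0.300, 0.0388 and 0.121, in that order. Slc4a1 groups did not overlap, for 1 of 5 genes against 3.24% of all probe sets, with 3.17 to 3.45 in Air and 3.50 upward in PH3.

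The array of Rat512 was high in white cell and platelet genes as well. Fcnb (ficolin B, of myeloid cells) read 8.37 against 3.66 to 4.19 in the other 3 PH3 bulbs, and the granule protease Mmp8 read 5.49 against 2.81 to 2.92. S100a9, a neutrophil calcium-binding protein, read 11.5 against 3.98 to 7.55. Pf4 read 8.59 against 5.76 to 6.11, and Car1, a red cell carbonic anhydrase, 6.26 against 3.12 to 3.24. Their part in the 3 h values was not tested. At 6 h all 5 genes were positive again, with no array standing apart for Alas2, Ahsp or Slc4a1. Ahsp read 4.15, 3.92, 4.21 and 4.25 in Air and 4.88, 4.45, 4.56 and 5.02 in PH3 bulbs. The groups did not overlap, for 1 of 5 genes against 1.4% of all probe sets, and the difference was 0.59 ± 0.50 (SE, adjusted p = 0.649). That standard error is drawn from all bulb groups, the 3 h group with Rat512 included. Without Rat512 the standard error of the Ahsp difference at 3 h was 0.203. The mean of 11 neutrophil genes ran from 3.67 to 4.06 in Air and from 4.05 to 4.73 in PH3 bulbs at 6 h, and that of 10 platelet genes from 3.79 to 3.90 and from 4.0 to 4.14.

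**Figure D4:**
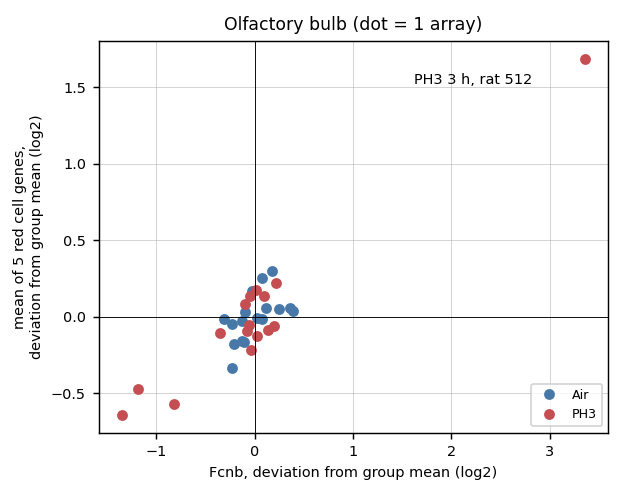
Olfactory bulb arrays, 1 dot each (33, Air blue, PH3 red), by the deviation of Fcnb from its group mean and the mean deviation of the 5 red cell genes, both in log2 units. The array of Rat512 stands alone at the upper right, and the 3 PH3 arrays at the lower left belong to its group, whose mean it raises.

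Rats that were high in Slc4a1 or Ahsp in blood tended to be high in the same gene in lung. Deviations from the group mean were correlated between tissues of the same rats for 5 genes and 10 pairs of tissues, 50 relations in all, with permutation of rats within groups and Benjamini-Hochberg adjustment over the 50. Slc4a1 in blood and lung had a Pearson r of 0.632 (permutation p = 0.00112, adjusted p = 0.0213) and a Spearman rho of 0.71 (permutation p = 6.6e-04, adjusted p = 0.033) over 31 rats. Without the 2 rats farthest from the median in blood its r was 0.615 (adjusted p = 0.0561). Ahsp in blood and lung had an r of 0.583 (permutation p = 3.1e-04, adjusted p = 0.0155) and a rho of 0.571 (permutation p = 0.00138, adjusted p = 0.0345), and r was 0.658 without 2 rats. Ahsp in blood and heart had an r of 0.465 (permutation p = 0.00128, adjusted p = 0.0213) and a rho of 0.561 (permutation p = 0.00325, adjusted p = 0.0462) over 31 rats, and r was 0.673 without 2 rats. The other 47 relations did not pass by Pearson, and 33 of 50 were positive. Ahsp in heart and lung had an r of 0.555 (permutation p = 0.0107, adjusted p = 0.107) over 32 rats, but passed by Spearman (rho 0.569, permutation p = 0.0037, adjusted p = 0.0462) and without 2 rats (r 0.645, adjusted p = 0.0345). Ahsp in brain stem and lung had an r of 0.481 (permutation p = 0.0188, adjusted p = 0.156) and a rho of 0.371 (permutation p = 0.0726, adjusted p = 0.403) over 30 rats, and passed only without 2 rats (r 0.698, adjusted p = 0.023). For Alas2, whose blood level hardly varied, no relation with blood had an unadjusted p under 0.05.

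**Figure D5:**
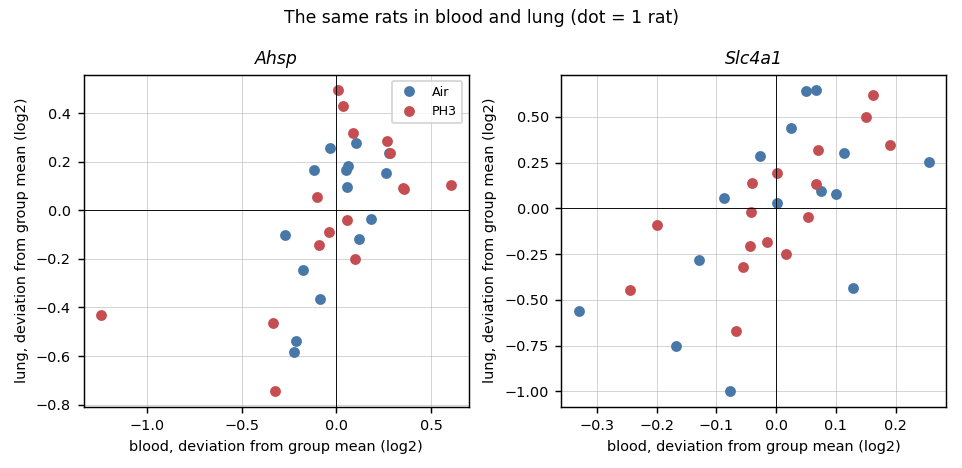
Deviation from the group mean in blood (horizontal) and lung (vertical) of the same 31 rats, in log2 units, for Ahsp (left) and Slc4a1 (right), Air in blue and PH3 in red. Points run from lower left to upper right, with Pearson r of 0.583 and 0.632.

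Within a tissue the genes varied together to different degrees. Over the 10 pairs of genes the median Pearson r of their deviations was 0.436 in lung and 0.416 in heart. It was 0.38 in brain stem and 0.194 in blood, across 31 or 32 arrays per tissue. Which arrays were normalized together is not given. In kidney the median was -0.122. Alas2 and Ahsp had an r of 0.601 there, while Slc4a1 had -0.345 with Alas2 and -0.374 with Ahsp. In the lung the highest pair was Alas2 with Slc4a1, at 0.816. Olfactory bulb had a median of 0.749 with all 33 arrays and of 0.215 without Rat512. These are descriptions and were given no test.

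Genes whose deviations were most like the mean of the 5 genes were named by Pearson r in each tissue, again as a description. In brain stem they were Tent5c (0.888), Hba-a3 (0.871), Hbq1b (0.859), Rbm38 (0.829) and Cdc25b (0.795) over 32 arrays. In heart they were Alox15 (0.85), Tent5c (0.788), Hbq1b (0.766), Rsad2 (0.73) and Bpgm (0.729), the last being the enzyme that makes bisphosphoglycerate in red cells. In lung they were Mkrn1 (0.854), Fech (0.815), the last enzyme of haem synthesis, Hbq1b (0.791), Ube2o (0.748) and Tmx4 (0.727). In blood Fbxo7 (0.913), Gadd45a (0.869), Ubap1 (0.867), Ppp1r15a (0.852) and Tspan8 (0.85) led over 31 arrays. In kidney Atoh8 (0.745), Fgf21 (0.724), Ccl22 (0.713), Pkp1 (0.713) and Wfikkn1 (0.689) led, and none of them was on a red cell list. In olfactory bulb the leaders were Fcnb (0.939), Mcpt9 (0.937), Mmp8 (0.927), Car1 (0.927) and Rnase3 (0.923). Without Rat512 the r of Fcnb was 0.45, of Mmp8 0.241 and of Car1 0.227, and that of Hbq1b was 0.641. Over the 24 Air group means of all tissues Hbq1b (0.995), Lyl1 (0.994), Treml1 (0.992), Cd52 (0.992) and Cd96 (0.991) were most alike. An r over 0.5 was reached by 0.759% (heart) to 2.79% (blood) of 13433 genes.

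The labelled tissues carried their own markers. Median Air levels of 7 heart muscle genes were 12.8 in heart, of 8 lung epithelial genes 12.7 in lung and of 8 kidney tubule genes 11 in kidney. Those of 7 oligodendrocyte and neuron genes were 12.7 in brain stem and 11.1 in olfactory bulb, and of 6 olfactory bulb genes 9.50 in the bulb. Heart muscle genes also had a median of 7.81 in lung.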

How the data were processed

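Per the submitters' processing notes, the deposited values are log2 probe set signals made with RMA in Partek, with versions not given in the sources used here; which arrays were normalized together is not given either. RMA's shared scaling hides a shift common to all genes of an array. The deposited table has 31139 probe sets, of which 97 controls were left out. Gene names came from the platform annotation (19063 probe sets with 1 gene, 572 with several, 11407 unnamed here). Sequences are from RefSeq, GRCr8.

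The members and gene lists were chosen with earlier results of these data known. Each tissue was fitted with limma 3.58.1 (R 4.3.3) on 8 groups of exposure and time, and Benjamini-Hochberg adjustment ran over 31042 probe sets. Calls needed an adjusted p under 0.05. The fit was tested on simulated data. The replicate block fit took all tissues together with the rat as a random block (consensus correlation 0.0168) and a shared estimate of the spread. The number of arrays per group, 3 to 5, limits the precision. Correlations used 100000 permutations within groups. Named genes were the members, up to 4 called genes of a red cell list per contrast and the 5 most alike genes per tissue; other genes were chosen after their values were seen. Rat numbers mark tissues of 1 animal, and do not pair PH3 with Air. Alternatives are given in the closing section.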

Additional observations from a re-analysis of the deposited data

Results flagged for a closer look

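Over 235 combinations of a gene and a group of 4 or 5 rats, 1 array stood apart from the rest of its group in 11, where chance alone gives about 1 in 20. Rat512 (PH3, 3 h) was high in olfactory bulb for Alas2 (7.68), Slc4a1 (6.70) and Rhag (4.83). Rhag was also high in Rat381 (PH3, 6 h, olfactory bulb, 4.54), low in Rat475 (PH3, 24 h, olfactory bulb, 3.31), and high in Rat357 (PH3, 1 h) in both brain stem (3.67) and lung (4.04). Ahsp was low in lung of Rat353 (Air, 1 h, 5.41) and in blood of Rat370 (Air, 3 h, 11.7). Slc4a1 was low in heart of Rat333 (PH3, 24 h, 6.20) and in kidney of Rat399 (PH3, 3 h, 7.76). Their causes were not tested.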

How the results depend on the processing

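No direction of a called difference reversed under any alternative run. Of 606 alternative counts of called genes or relations, 594 stayed within 1.5 times the count reported. Outside kidney at 1 h every reported count of PH3 minus Air calls was 0, and a 0 that stayed 0 is among the 594. Their share therefore says little about how stable a call is. Single genes, the members and the called genes of the red cell lists, had 2404 alternatives. A reported call was lost in 113 of these, lung calls included. The counts that moved further were mostly the kidney count at 1 h, 2 genes as reported. It was 1 with array medians subtracted, 1 among the brighter 50% of probe sets (which leave out Ahsp), 1 in the replicate block fit with the rat as a random block, and 0 with the 2 groups alone. Leaving out each rat in turn gave 0 to 2. Alas2 in kidney at 1 h ranged from 1.23 to 1.69 without 1 rat (past the threshold in 3 of 8 fits) and from 1.2 to 1.5 under 10 other settings (9 past). Ahsp ranged from 0.612 to 0.97 (2 of 8) and from 0.742 to 0.824 (6 of 9). Among the other settings of both genes, the swap to the second Slc4a1 probe set left Alas2 and Ahsp as reported. It had to pass and is no separate check of them. Heart at 1 h had 1 call in place of 0 against Air rats of all times, and olfactory bulb had 1 gene in place of 0 that differed between Air groups when Air arrays were fitted alone. The causes of these changes were not tested. The replicate block changed no other count of called genes. With 3 to 5 arrays per group the precision is set by the number of arrays, and solid-tissue signals of Rhag and Epb42 near the floor give little room for a fall.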

Other observations

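At 1 h the same rats tended to sit at the ends of their groups in several tissues. Over 5 genes and 5 tissues (olfactory bulb came from other rats), PH3 Rat357 held the highest value of its group in 15 of 25 cases, and PH3 Rat350 in 6. The 3′ minus 5′ log2 value of Rat357 was 0.868 in heart and 0.713 in brain stem. Other PH3 rats at 1 h had 0.214 to 0.283 and 0.420 to 0.527 there. Rat357 was also above them in kidney (0.363), and within their range in lung and blood. The part of this in the counts was not tested. Air Rat353 held the lowest value in 14 of 25, and Air Rat345 in 5. Genes and tissues of 1 rat are not independent, so no test was made of these counts.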
